A study of Mus musculus with 3 samples.

Results

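The cells described here are cochlear epithelial cells whose most expressed marker set was Epyc, Aqp4, Frzb, Pcdh17 and Orm2. There were 183 of them among 849 epithelial cells, 1595 cells that passed the cell filters and 2395 barcodes in all. A barcode was kept with at least 200 genes and with 1 to 20% mitochondrial UMIs (unique molecular identifiers, each marking 1 captured RNA molecule), and was taken as epithelial with at least 1 UMI of Epcam, an epithelial adhesion protein. Each epithelial cell then received 4 scores, each the mean over 5 genes of the natural log of 1 plus the UMIs per 10000. The sets were S (Sox2, Otog, Rorb, Gjb2, Ceacam16), E (the 5 genes above), G (Gabrp, Alox15, Prss36, Fetub, Prss22) and R (Vmo1, Lypd2, Otx2, Meis2, Lrp2). A cell was a member if E was its highest score and at least 2 E genes had a UMI. The cells were thus chosen by measured values, the UMIs of the 20 genes of the 4 sets and of Epcam, and the values of these genes are given as a description with no test.

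All libraries came from cultured cochlear explants of mice aged 4 to 6 weeks that carried rtTA/tet-on-Myc/tet-on-NICD. The rtTA protein binds DNA when doxycycline (Dox) is present and then switches on the transcription factor Myc and NICD, the intracellular part of the Notch receptor. The control library received sterile water, and both Dox libraries received 2 µg/ml Dox for 4 days, after which the sensory epithelium was dissected and counted with 10x Genomics 3' chemistry. Each of the 3 libraries pooled 4 cultures, and control cultures carried the same transgenes. The labels do not name the promoter that drives rtTA, and so do not tell which cells can respond, and no library had Dox without the transgenes, so that effects of the drug and of the transgenes cannot be told apart.

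The sensory strip of the cochlea is flanked by non-sensory epithelium, including the inner and outer sulcus and the Claudius and root cells, which line the fluid space and handle water and ions. Epyc encodes epiphycan, a small leucine-rich proteoglycan of the extracellular matrix, Aqp4 encodes a water channel of the basolateral membrane, Frzb a secreted Wnt antagonist, Pcdh17 a protocadherin and Orm2 an acute phase glycoprotein. Notch signalling keeps supporting cells from becoming hair cells, and MYC is a general driver of ribosome production and of entry into the cell cycle.

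The promoters of 4 genes on which the description turns are shown first, because 3 of them belong to mitotic genes that had at most 1 UMI in control members and many in Dox members, and Epyc is the gene that sets the cells apart. Sequences are from RefSeq (GRCm38.p6), 250 bases before to 50 after the annotated start, written 5' to 3' on the strand of the gene. Capitals mark matches on either strand to CHR, the cell cycle homology region TTTGAA, to which complexes that time mitotic genes bind. The regions are chr10:97643818-97644117 on the + strand for Epyc, chr1:189688037-189688336 on the - strand for Cenpf, chr2:164769679-164769978 on the + strand for Ube2c and chr7:135716330-135716629 on the - strand for Mki67.
Epyc: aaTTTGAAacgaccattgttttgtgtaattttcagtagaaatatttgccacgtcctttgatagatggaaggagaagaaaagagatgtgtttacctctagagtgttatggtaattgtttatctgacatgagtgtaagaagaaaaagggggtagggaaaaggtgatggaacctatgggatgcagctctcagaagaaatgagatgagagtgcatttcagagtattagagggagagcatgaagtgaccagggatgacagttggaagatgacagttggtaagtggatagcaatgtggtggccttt
Cenpf: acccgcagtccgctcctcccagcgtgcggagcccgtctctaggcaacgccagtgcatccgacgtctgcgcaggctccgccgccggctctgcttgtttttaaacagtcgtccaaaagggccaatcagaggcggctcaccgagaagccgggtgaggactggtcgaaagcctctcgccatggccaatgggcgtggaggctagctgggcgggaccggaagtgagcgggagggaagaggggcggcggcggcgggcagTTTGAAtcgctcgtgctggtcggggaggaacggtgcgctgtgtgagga
Ube2c: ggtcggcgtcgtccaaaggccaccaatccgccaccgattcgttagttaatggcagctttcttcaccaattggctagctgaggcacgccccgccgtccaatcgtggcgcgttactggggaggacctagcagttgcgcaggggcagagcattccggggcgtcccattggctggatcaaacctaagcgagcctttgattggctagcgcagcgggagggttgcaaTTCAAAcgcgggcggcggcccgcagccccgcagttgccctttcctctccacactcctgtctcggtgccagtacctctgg
Mki67: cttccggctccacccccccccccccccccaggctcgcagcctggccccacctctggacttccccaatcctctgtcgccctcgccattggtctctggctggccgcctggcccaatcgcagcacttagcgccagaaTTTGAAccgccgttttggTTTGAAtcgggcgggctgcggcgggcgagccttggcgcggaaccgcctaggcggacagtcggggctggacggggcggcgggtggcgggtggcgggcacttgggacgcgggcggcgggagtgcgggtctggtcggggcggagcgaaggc
The Mki67 window holds 2 matches, and the others hold 1 each. Of the 28 G2/M genes measured in members, 25 had a promoter in the RefSeq table, and 18 of these (72.0%) held TTTGAA within the same window. Among all 27025 promoters of the table the share was 18.1%, and among 21 promoters of S phase genes it was 14.3%. In the same windows RBPJ, the DNA-binding partner of NICD, was searched as TGGGAA, the E-box of MYC as CACGTG and E2F as GGCGGGAA, all on both strands. TGGGAA was in 3 of 10 promoters of Notch-responsive genes (against 25.5% of all promoters) and not in that of Nrarp. CACGTG was in 7 of 29 promoters of MYC-responsive growth genes (24.1%, against 7.24%), and GGCGGGAA in 3 of 21 of S phase genes (14.3%, against 2.24%). A match says only that these letters occur in the window, and no match only that they do not.

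Members made up 7 of 90 epithelial cells in the control library (7.78%, 95% exact Clopper-Pearson interval 3.18 to 15.4%), 60 of 215 in Dox replicate 1 (27.9%, 22 to 34.4%) and 116 of 544 in Dox replicate 2 (21.3%, 18.0 to 25.0%). The control interval lies below both Dox intervals. Intervals here and below cover counting error only, and a share of cells depends on which cells survived culture and dissociation. Among the epithelial barcodes, 42 of 90 in the control, 16 of 215 in Dox replicate 1 and 28 of 544 in Dox replicate 2 were copies of a barcode at least 10 times deeper in another library, with medians of 698.5, 717.5 and 741 UMIs. Without these copies the shares were 14.6% (7 of 48, 6.07 to 27.8%), 30.2% (60 of 199, 23.9 to 37.0%) and 22.1% (114 of 516, 18.6 to 25.9%). The control interval then overlapped both Dox intervals, and no test of the shares was run.

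Over all libraries, 125 barcodes occurred in more than 1 library. They were deep in 1 library (median 96398 UMIs) and shallow in the others (median 690). Among members, 3 control, 12 Dox replicate 1 and 5 Dox replicate 2 cells shared a barcode, and 18 of these 20 were the deepest copy. The libraries held 5436731, 20309102 and 33385927 UMIs (control, Dox replicates 1 and 2, the order used throughout), and the member cells 262342, 3772447 and 5212742, with medians of 31557, 57074.5 and 38655.5 UMIs per cell. The 3 control members that shared a barcode were the 3 deepest and held 67.6% of the control members' UMIs. Median mitochondrial shares were 5.47%, 4.66% and 4.07%, and the nuclear RNA Malat1 made up a median of 3.8%, 1.20% and 1.15% of a member's UMIs.

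Because the control held 7 member cells, too few for a summed profile to be tested, no test of Dox against control was run. Member UMIs were summed per library and scaled to counts per 1000000 (CPM), and differences are log2 ratios of CPM plus 10, Dox over control, a scale that understates the change of low genes. A gene was counted as higher or lower by size if it was at least 2-fold so in both Dox libraries, and as measured with at least 50 UMIs over the 3 sums. By this rule 935 of 9841 measured genes (9.5%) were higher and 675 (6.86%) lower. Of these, higher genes made up 58.1% under total count scaling, 73.5% (1205 higher, 434 lower) under TMM scaling and 70.5% (1133 and 475) with DESeq2's size factors, which moved the median log2 ratio of all genes from 0.04 and 0.03 to 0.19 and 0.20, and to 0.15 and 0.16. In the control sum 1 UMI was worth 3.81 CPM, and 664 measured genes, 309 of the higher ones among them, had no control UMI. For these a fold is given as a bound against 3 counts, or 11.4 CPM. No value here has a replicate check on the control side.

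Epyc chose the members with the others, and its level differed widely between libraries. Its level was 8546 CPM in control members (95% Poisson interval 8196 to 8907), 736 (709 to 764) in Dox replicate 1 and 944 (918 to 971) in Dox replicate 2. It had a UMI in 7 of 7, 59 of 60 and 115 of 116 members, with per-cell medians of 9507, 820 and 825 CPM. The lowest of the 7 control cells held 2258 CPM and the highest 14122, so that the lowest control cell lay above both Dox medians. In epithelial cells of the other 3 sets Epyc stood between 2.2 and 482 CPM, and cells with macrophage or glia markers had no UMI of it.

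In summed levels, the other rule genes differed in the same direction except Pcdh17. Aqp4 (chr18) stood at 160, 74.0 and 59.3 CPM, with a UMI in 6 of 7, 48 of 60 and 89 of 116 members, and Frzb at 290, 22.8 and 18.8 CPM. Pcdh17 was at 76.2, 206 and 116 CPM, and 90% of its control UMIs came from 1 cell. Orm2 stood at 877, 227 and 71.7 CPM, but 1 cell held 93.9% of its UMIs in the control and 1 cell 65.5% in Dox replicate 1. With 1 control cell left out at a time, its mean log2 ratio ran from -3.12 to 0.80, so its direction rested on 1 cell. Epyc was thus the marker found across nearly all members of each library, while most Orm2 UMIs of the control and of Dox replicate 1 lay in 1 cell.

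The lead of the E score over the next set was smaller in Dox members, with medians of 1.30, 0.44 and 0.38. The next score was S in 6 of 7 control members, while in the Dox libraries it was G in 36 of 60 and 74 of 116. At the threshold, the smallest lead of a member was 0.0033, 13 members led by under 0.1, and 15 cells with at least 2 E genes were kept out by under 0.1. A further 36 cells were led by E on a single gene and were kept out.

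**Figure D1:**
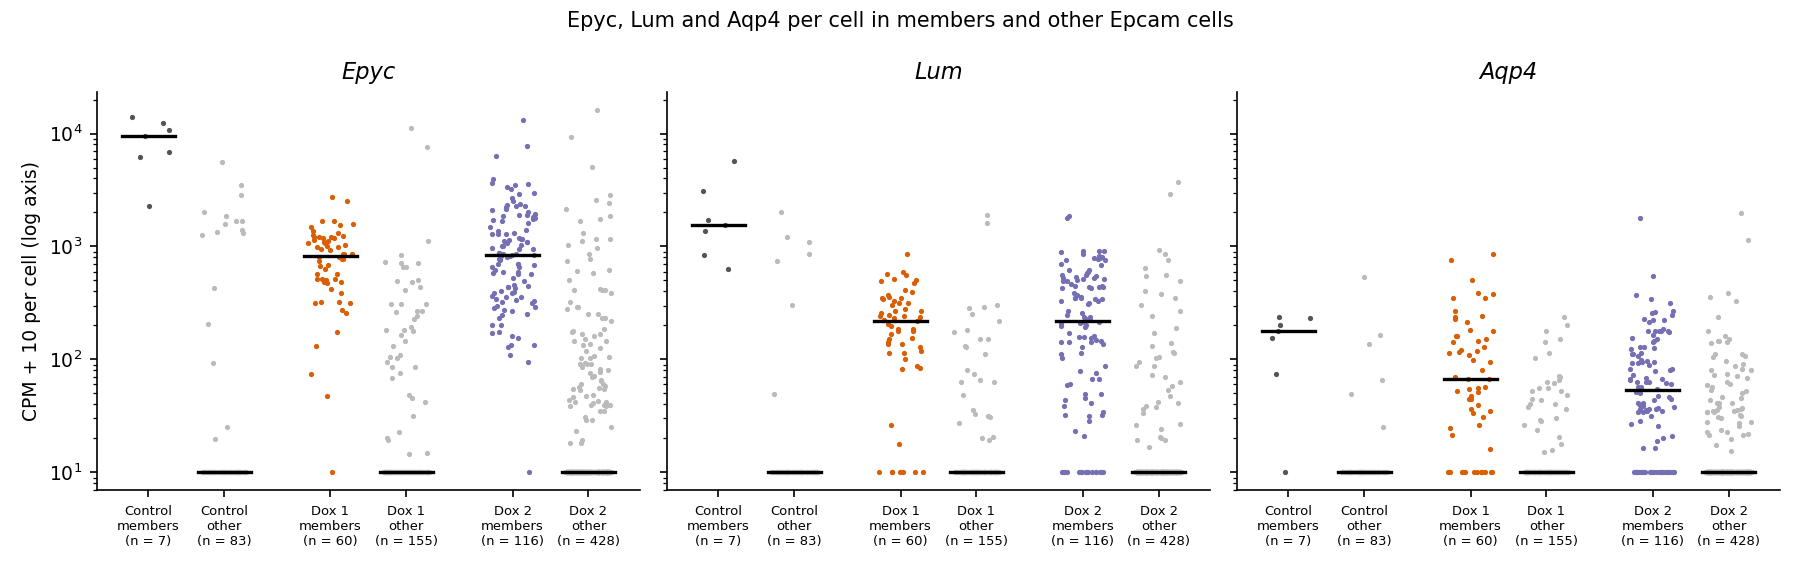
Each point is 1 epithelial cell, with CPM plus 10 on a log axis, for members (coloured) and all other Epcam cells (grey) of each library, and black bars give the median. Epyc and Lum are high in all 7 control members (medians of 9507 and 1533 CPM) and lower in the Dox members (820 and 825, and 211 and 210), while the medians of other Epcam cells lie at a CPM of 0; Epyc and Aqp4 belong to the rule that chose the cells.

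Outside the rule, the gene whose smallest ratio to other epithelial cells over the 3 libraries was largest was Lum, which encodes lumican, another small leucine-rich proteoglycan. Lum stood at 1635, 192 and 254 CPM in members and at 39.6, 23.8 and 13.7 CPM in other epithelial cells, log2 ratios of 5.05, 2.58 and 3.48. It had a UMI in 7 of 7, 53 of 60 and 100 of 116 members. Dox members were thus above other epithelial cells of their own library and below the control members, as for Epyc. Over member cells, Spearman's correlation of Epyc with Lum was 0.67 (60 cells) and 0.73 (116 cells) in the Dox libraries and 0.54 over the 7 control cells. For Epyc with the chosen gene Aqp4 it was 0.40 and 0.41 in the Dox libraries and also 0.54 over the 7 control cells. These correlations share the cells' depth, with which Epyc had a correlation of -0.38 and -0.34 in the Dox libraries and -0.11 in the control.

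Lum and Epyc are near neighbours. On chromosome 10 the + strand carries Dcn (chr10:97479609-97518143), Lum (chr10:97565128-97572703), Kera (chr10:97606879-97613692) and Epyc (chr10:97644068-97682454), 4 small leucine-rich proteoglycan genes in GENCODE M21 on GRCm38. Dcn, which encodes decorin, stood at 133, 3.98 and 2.11 CPM, with 97.1% of its control UMIs in 1 cell, and Kera (keratocan) had no UMI in any member. Lum and Dcn are also fibroblast genes, and they held most of the UMIs of the fibroblast list, which summed to 1769, 197 and 257 CPM. Col1a1, Col1a2, Col3a1 and Pdgfra, which define fibroblasts, had no UMI in control members. Among Dox members, Col1a1, Col1a2 and Col3a1 had UMIs in replicate 1, and Col1a2, Col3a1 and Pou3f4 in replicate 2. Pdgfra had none in any library, and no member of any library held UMIs of at least 3 of the 10 fibroblast markers.

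Other genes set the members apart from the remaining epithelium in each library. By the size rule, 14 of 9841 genes (0.142%) were at least 2-fold higher in members in all 3 libraries and 29 (0.295%) lower. Col9a1, a chain of the collagen that decorates type II fibrils, stood at 164, 105 and 95.7 CPM in members against 26.2, 9.59 and 21.9 in other epithelial cells. Gata2, a zinc finger transcription factor, stood at 141, 51.2 and 54.1 against 23.5, 9.36 and 11.1 CPM. Aldh1a1, which makes retinoic acid, had log2 ratios of 2.18, 1.22 and 1.17, and Crabp2, which carries retinoic acid to the nucleus, of 1.23, 1.12 and 1.40. Further genes higher in members were Cobl, an actin nucleator (1.59, 1.59 and 1.68), the hyaluronan-binding Itih5 (1.38, 1.08 and 1.67), the helix-loop-helix inhibitor Id2 (1.59, 1.05 and 1.49) and the transglutaminase Tgm2 (1.74, 1.02 and 1.35). The transcription factors Isl1 (1.28, 0.92 and 1.89) and Nr2f2 (1.25, 0.94 and 1.51) came just under 2-fold in Dox replicate 1. The rule that named these genes asked for a high ratio in each library.

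Genes lower in members included Hspb1, a small heat shock protein, at 7.62, 28.9 and 24.2 CPM against 992, 217 and 343 in other epithelial cells. Ptgds, which makes prostaglandin D2, stood at 87.7, 11.4 and 14.4 CPM against 1328, 84.5 and 132. Cndp2, a dipeptidase, had log2 ratios of -5.32, -2.48 and -3.12, and the cyclin Ccnd2 of -3.32, -1.44 and -2.85. Bmp4 and Fst stood further above other epithelium in the control than with Dox. Bmp4 had a log2 ratio of 3.71 in the control and of 0.38 and 0.26 in the Dox libraries, and the activin antagonist Fst one of 3.57, 0.28 and 1.67. Reg3g, an antibacterial lectin, went the other way, at -0.34, 2.01 and 2.19. Whether these ratios differ between control and Dox was not tested.

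**Figure D2:**
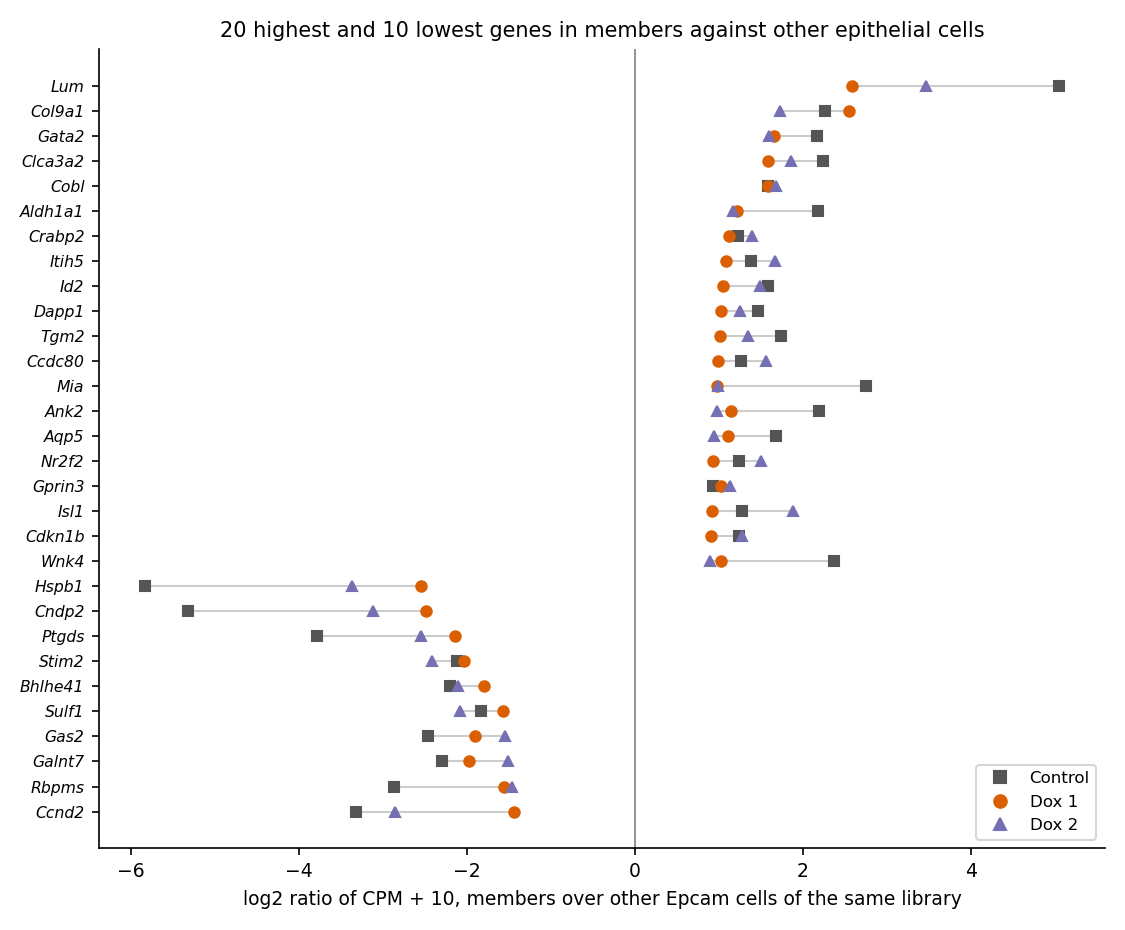
Log2 ratio of CPM plus 10 in members over other Epcam cells of the same library, for the 20 genes outside the rule with the largest smallest ratio and the 10 lowest, with squares for the control, circles for Dox replicate 1 and triangles for Dox replicate 2. Lum stands apart at 2.58 to 5.05, and Hspb1 and Cndp2 are the lowest.

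The label of the cells as sulcus-like was checked against 13 genes of sulcus, Hensen, Claudius and root cells, of which 11 were measured. Relative to other epithelial cells their median log2 ratio was 0.35, 0.28 and 0.49. The ATP-gated channel gene P2rx2 stood at 423 CPM in control members and 449 in other control epithelium, the potassium channel gene Kcnj16 at 137 and 70.4, and Anxa1 had no control UMI against 127 CPM elsewhere. Bmp4, known from the outer sulcus side of the duct, stood at 130 CPM in control members against 0.67 elsewhere, with 64.7% of its UMIs in 1 cell, and the water channel Aqp5 at 130 against 33.5, with 79.4% in 1 cell. The list's median was thus less than 2-fold above other epithelium in each library. Hair cell markers summed to 221, 110 and 106 CPM over 3, 4 and 5 of 12 genes read. Atoh1, Pou4f3, Gfi1, Otof and Tmc1 were at 0 in all 3 libraries. Ocm was read in Dox replicate 1 members, and Pvalb and Slc26a5 in Dox replicate 2 members. At least 3 of the markers had a UMI in 1, 14 and 9 members. Keratins of simple epithelia were present, Krt8 at 1338, 1161 and 1276 CPM and Krt18 at 964, 803 and 1005.

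Genes of cell division were higher in Dox members than in the control members. All 28 measured G2/M phase genes were at least 2-fold higher in both Dox libraries, beside 9.5% of all genes, and none was lower, with list medians of 2.75 and 2.80 (log2). With the 18 genes lacking a control UMI set at their bound, the medians were 2.49 and 2.57. The medians of all measured genes were 0.04 and 0.03. Cenpf, a kinetochore protein, had 0 control UMIs against 283 and 259 CPM, at least 24.7-fold and 22.7-fold higher. Ube2c, which helps destroy cyclins at the end of mitosis, stood at 0, 174 and 188 CPM, at least 15.3-fold and 16.5-fold higher. Mki67, a coat protein of mitotic chromosomes, stood at 3.81 CPM (1 UMI), 275 and 270, a ratio of 72.1 (95% interval 12.9 to 2851) in Dox replicate 1. Top2a, which untangles DNA, stood at 11.4 (3 UMIs), 267 and 288 CPM, ratios of 23.4 (7.98 to 114) and 25.2 (8.60 to 122).

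The 12 genes with the largest differences upward held 6 further genes, besides Cenpf, Ube2c, Mki67 and Top2a, that serve replication, mitosis or chromatin in dividing cells. These were the linker histone Hist1h1b (0, 214 and 318 CPM), the kinase subunit Cks1b (0, 179 and 192), the spindle protein Prc1 (0, 171 and 203), the nucleotide enzyme Dut (7.62, 251 and 269), the chromosomal passenger protein Cdca8 (0, 121 and 142) and the chromatin ATPase Atad2 (0, 111 and 122). The remaining genes, Reg3g and Tnfaip2, are not cell cycle genes. Summed levels were higher in other control epithelium: Cenpf stood there at 190 CPM, Mki67 at 81.8 and Hist1h1b at 18.1. By cells at full depth, an Mki67 UMI was in 1 of 20 S, 0 of 3 G and 1 of 16 R control cells, against 1 of 7 members. UMIs of at least 3 G2/M genes were in 2 of 20, 2 of 3 and 8 of 16, against 1 of 7. The R cells were deeper, with a median of 58852.5 UMIs against 31557 in control members. With cells thinned to a common depth, these counts were 1 of 17, 0 of 1 and 0 of 15, against 0 of 6. A further 44 control epithelial cells were in no set and enter the summed levels only. So at full depth some control cells of the other sets held mitotic RNA, but few of them had an Mki67 UMI.

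S phase genes followed. Of 25 measured, 24 were higher in both Dox libraries and none lower, beside 9.5% and 6.86% of all genes, with medians of 2.28 and 2.19, or 1.75 and 1.64 with the 10 genes lacking a control UMI at their bound. The helicase gene Hells had ratios of 40.1 and 34.8, Mcm6 of 32.1 and 30.2, and Mcm7, with no control UMI, was at least 8.44-fold and 8.91-fold higher. Among G1 regulators, Cdk6 stood at 7.62, 86.2 and 78.7 CPM and Cdk4 at 126, 266 and 302. Cyclin D1 (Ccnd1) stood at 83.9, 489 and 481 CPM, and 90.9% of its control UMIs were in 1 cell. The retinoblastoma gene Rb1 was lower, at 99.1, 27.8 and 17.5 CPM, as was the inhibitor Cdkn1a at 259, 107 and 123.

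Cells with UMIs of at least 3 G2/M genes were 1 of 7, 54 of 60 (90.0%) and 98 of 116 (84.5%). With every cell thinned to 2000 UMIs they were 0 of 6 (which allows up to 45.9% by the exact interval), 24 of 60 (40.0%, 27.6 to 53.5%) and 46 of 113 (40.7%, 31.6 to 50.4%), 1 control and 3 Dox replicate 2 cells being too shallow. Thinned Dox cells of set G reached 55.1% and 50.0%, and of set R 46.2% and 49.8%. Set S stood at 2.78% and 29.2%, and cells with glia markers at 6.67% and 0% (0 of 35, interval up to 10.0%) in the same libraries. In Dox members with fewer than 3 G2/M genes, 6 and 18 cells, Notch1 stood at 755 and 267 CPM, against 394 and 335 in the rest, and their median depths were 15499.5 and 20494 UMIs against 60513.5 and 40967.

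**Figure D3:**
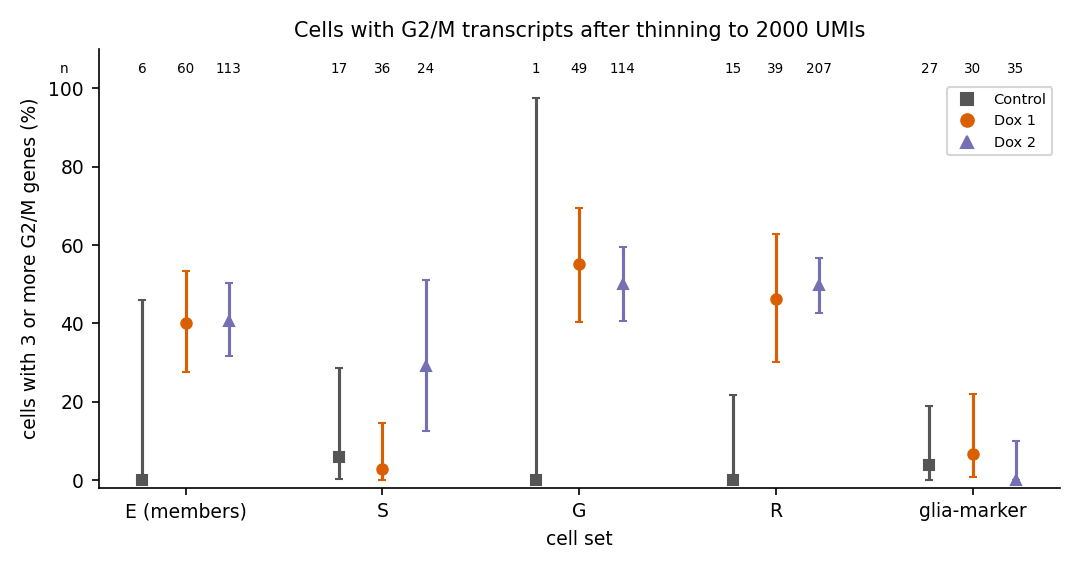
Share of cells with UMIs of at least 3 G2/M genes after thinning to 2000 UMIs, by cell set and library, with exact 95% binomial intervals and the number of cells above each. Dox members stand at 40.0% and 40.7%, and the control interval of 6 cells reaches 45.9%.

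Genes of ribosome production and growth were also higher. Of 34 measured MYC-responsive growth genes, 21 were higher in both Dox libraries and none lower, with medians of 1.22 and 1.36, beside 9.5% of all genes. The nucleolar chaperone Npm1 stood at 850, 3732 and 3816 CPM, ratios of 4.39 and 4.49, the nucleolar protein Nolc1 at 15.2, 153 and 181, and Dkc1, which modifies ribosomal RNA, had ratios of 9.11 and 8.74. Of 50 cytosolic ribosomal protein genes, 32 were higher and none lower, beside the same shares, with medians of 1.11 and 1.13. Rpl12 stood at 1334, 3689 and 3723 CPM. Nuclear genes of oxidative phosphorylation showed no such shift, with 0 of 28 past 2-fold either way and medians of 0.36 and 0.22.

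Myc itself stood at 41.9, 52.2 and 54.3 CPM, ratios of 1.25 (95% interval 0.681 to 2.54) and 1.29 (0.713 to 2.62), so no difference was detectable with 11 control UMIs. Without the members that shared a barcode, which left 2 control UMIs, it stood at 23.5, 66.1 and 55.6 CPM, log2 ratios of 1.18 and 0.97. The labels do not tell whether RNA of the transgene carries the 3' end that is counted as Myc.

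Notch pathway genes differed in both directions. Among receptors, Notch1 stood at 130, 407 and 330 CPM, ratios of 3.14 (2.24 to 4.55) and 2.55 (1.82 to 3.69), in 6 of 7, 58 of 60 and 110 of 116 members. NICD is a piece of Notch1, but the labels do not tell whether transgene RNA carries the 3' end counted as Notch1. Transgene and endogenous RNA cannot be told apart in these counts. Notch3 stood at 3.81, 51.4 and 44.1 CPM (1 control UMI), and the ligand gene Jag1 at 15.2, 80.1 and 67.1 (4 control UMIs). Notch2 stood at 19.1, 9.54 and 11.5, and the DNA-binding partner Rbpj at 61.0, 58.6 and 49.7. Of 8 other receptors, ligands and partners measured, 2 were higher (Notch3 and Jag1) and none lower, beside 9.5% and 6.86% of all genes. That list does not include Notch1.

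Of 15 measured Notch-responsive genes, 5 were higher and 4 lower, with medians of 0.40 and 0.04, beside 9.5% and 6.86% of all genes. The higher genes were Nrarp, Heyl, Ccnd1, Jag1 and Notch3. Jag1 and Notch3 are also counted among the receptors and ligands above, and Ccnd1 among the G1 regulators. Nrarp (chr2:25180758-25183339), a feedback inhibitor that binds the Notch complex, stood at 7.62, 247 and 192 CPM, from 2 control UMIs, ratios of 32.4 (8.96 to 268) and 25.2 (6.96 to 208). It had a UMI in 2 of 7, 58 of 60 and 98 of 116 members. Heyl, a repressor downstream of Notch, stood at 3.81, 70.2 and 43.4 CPM. Hey1 stood at 160, 117 and 134, and Hes5 at 0, 3.98 and 13.6 CPM. Hes1, the best known target, was lower in the Dox members, at 476, 60.2 and 194 CPM, log2 ratios of -2.79 and -1.26. The other lower genes were Gata3, Id1 and Id3. Gata3 is also counted in the sulcus and otic progenitor lists below, and Id1 and Id3 among the BMP and Id genes. Without the members that shared a barcode, Nrarp kept log2 ratios of 3.74 and 3.26, and Notch1 was at 1.37 and 0.83.

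**Figure D4:**
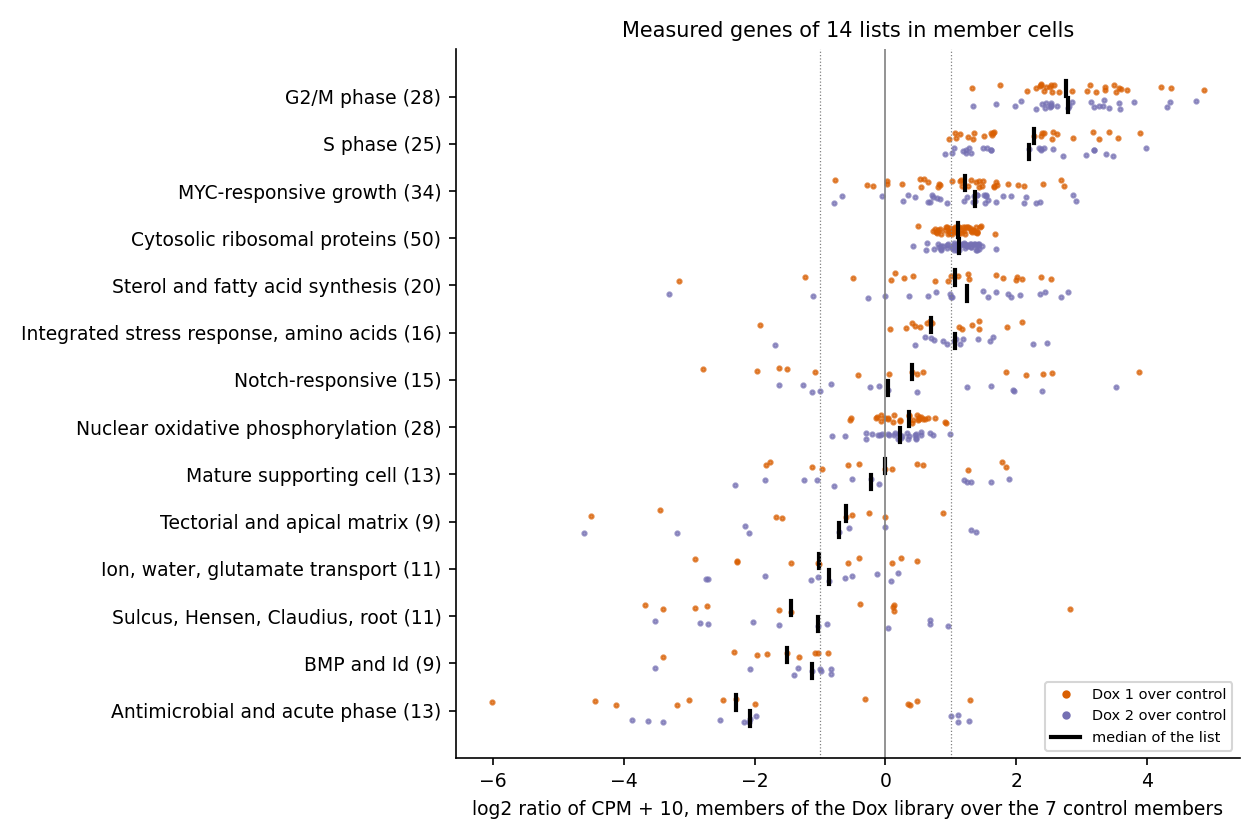
Log2 ratio of CPM plus 10 in Dox members over the 7 control members for each measured gene of 14 lists, with Dox replicate 1 above Dox replicate 2 and black bars at the medians. G2/M genes sit at medians of 2.75 and 2.80 and the antimicrobial list at -2.29 and -2.08, with ribosomal protein genes in a tight band near 1.11.

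Genes of sterol synthesis were higher in part. Of 20 measured sterol and fatty acid genes, 9 were higher and 2 lower, with medians of 1.06 and 1.25, beside 9.5% and 6.86% of all genes. Hmgcs1, which starts the mevalonate pathway, stood at 26.7, 145 and 178 CPM, and Idi1 at 15.2, 135 and 153. The 2 lower genes were the desaturases Scd1 (648, 63.9 and 56.6) and Scd2 (1132, 479 and 521), with 60.6% of the Scd1 control UMIs in 1 cell. Of 16 integrated stress response and amino acid genes, 7 were higher and 1 lower, beside the same shares. Phgdh, the entry to serine synthesis, stood at 11.4, 80.6 and 109 CPM. With cells thinned to 2000 UMIs, where few of the sterol genes were measured, that list's median, averaged over the Dox libraries, was -0.15.

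Genes of the mature non-sensory epithelium were lower by size in the Dox members. Of the 11 measured sulcus, Hensen, Claudius and root cell genes, 6 were lower and none higher, with medians of -1.45 and -1.04, beside 6.86% of all genes lower and 9.5% higher. P2rx2 stood at 423, 55.1 and 50.8 CPM and Kcnj16 at 137, 9.54 and 12.5. Fst stood at 149, 2.39 and 29.2 and Bmp4 at 130, 3.18 and 2.11. Bmp4 kept log2 ratios of -1.51 and -1.44 without the members that shared a barcode, whereas Fst then stood at -1.35 and 0.23. Of 9 BMP and Id genes, 6 were lower and none higher, with medians of -1.50 and -1.13, against those same shares. The BMP feedback gene Smad7 stood at 194, 31.0 and 38.6 CPM, Id1 at 793, 274 and 391 and Id3 at 507, 123 and 226. Of 11 transport genes, 5 were lower and none higher, again beside 6.86% and 9.5%. The potassium chloride cotransporter gene Slc12a7 stood at 332, 61.0 and 41.1 CPM and the sodium pump subunit Atp1b1 at 2409, 490 and 663.

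Of 9 tectorial membrane and apical matrix genes, 4 were lower and none higher, beside 6.86% and 9.5% of all genes. Col9a3 stood at 335, 21.7 and 28.0 CPM and Col11a1 at 164, 44.5 and 30.9, while Col9a1 differed less, at 164, 105 and 95.7. Of 13 mature supporting cell genes, 3 were higher and 3 lower, against the same shares of all genes. The calcium-binding S100a1 stood at 5127, 1445 and 1029 CPM and Sox9 at 442, 198 and 209, but Sox10 at 91.5, 98.6 and 76.9 and Otol1, an inner ear collagen, at 19.1, 90.1 and 98.0. Epcam, of which the rule asked for 1 UMI, stood at 2443, 983 and 1060.

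Of the 12 genes with the largest differences downward, most had UMIs in several control cells. Lgals1 (chr15:78926725-78930465), a galectin, stood at 2077, 38.2 and 81.5 CPM, the control 54.4 and 25.5 times the Dox level, with a UMI in 6 of 7 control members. Igfbp5, which binds insulin-like growth factors, stood at 5584, 329 and 405 and was found in 7 of 7. The cystatin Cst6 stood at 1277, 46.9 and 42.8, also in 7 of 7. The others of this kind were Pla2g7, a phospholipase (698, 42.7 and 41.4), the cartilage protein Cnmd (480, 9.28 and 24.6), the carboxypeptidase-like Cpxm2 (347, 8.48 and 15.3), the adhesion molecule Ncam1 (328, 10.6 and 19.4) and the sodium pump regulator Fxyd6 (225, 6.89 and 10.7).

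For 4 of the 12 genes, 1 control cell held most of the control UMIs. Wfdc12 (255, 3.45 and 3.07 CPM) came from 1 control cell, Slpi, a protease inhibitor (949, 4.77 and 67.7), had 95.6% of its control UMIs in 1 cell, complement C3 (625, 19.4 and 33.2) had 76.8%, and Bmp4 64.7%. Without the members that shared a barcode, Wfdc12 stood at log2 ratios of 0.58 and 0.37 and Slpi at -2.17 and 0.34, so neither was lower in both. C3 was then at -0.88 and -0.65, and with any single control cell left out its mean log2 ratio was between -4.60 and -2.37. Lgals1 kept -4.83 and -4.29, Cst6 -5.39 and -5.16 and Igfbp5 -2.43 and -2.58. Epyc kept -3.38 and -3.15 and Lum -2.39 and -2.12 in the same cells.

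**Figure D5:**
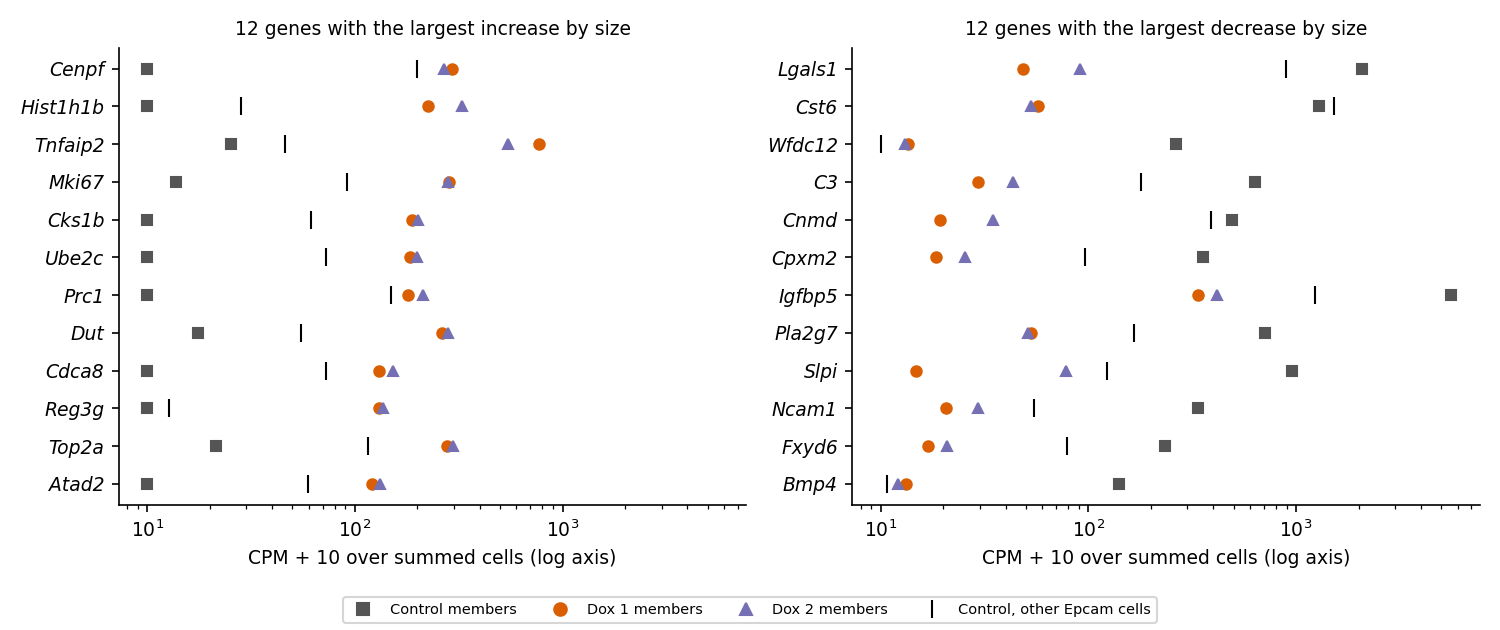
CPM plus 10 over summed cells on a log axis, for the 12 genes with the largest increase and the 12 with the largest decrease by size, in control (squares), Dox replicate 1 (circles) and Dox replicate 2 (triangles) members, with a tick for other control Epcam cells. Squares at 10 mark genes with no control UMI; for Cenpf, Prc1 and Mki67 the ticks lie well to the right of the squares, and Wfdc12 and Bmp4 are near 10 in other control epithelium.

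Of 13 measured antimicrobial and acute phase genes, 8 were lower and 1 (Cxcl1) higher, with medians of -2.29 and -2.08, beside 6.86% and 9.5% of all genes. The iron-chelating lipocalin Lcn2 stood at 17710, 3611 and 3063 CPM, with 50.2% of its control UMIs in 1 cell. Without the members that shared a barcode in any library (3 control, 12 and 5 Dox cells), the list's median log2 ratio, averaged over the Dox libraries, was 0.29, Lcn2 stood at 1.18 and 0.59 and Orm1 at 1.53 and 1.01 (log2). With any single control cell left out, that median was between -2.32 and -1.46. Reg3g (chr6:78466269-78468872), which is not on this list, stood at 0, 121 and 126 CPM, at least 10.6-fold and 11-fold higher. It had UMIs in 29 of 60 and 69 of 116 Dox members, and in other control epithelium it stood at 2.68 CPM. Tnfaip2, a gene that responds to tumour necrosis factor, stood at 15.2, 761 and 537 CPM, ratios of 49.9 (19.5 to 183) and 35.2 (13.7 to 129).

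Immediate early and antigen presentation genes were lower in part. Of 23 immediate early and dissociation genes, 8 were lower and 1 higher, beside 6.86% and 9.5% of all genes, with Klf4 at 618, 75.5 and 111 CPM. Of 15 interferon and MHC class I genes, 5 were lower and none higher, beside the same shares, with B2m at 598, 142 and 90.9 and H2-D1 at 728, 187 and 146 CPM. The part that dissociation played in these values was not tested.

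Markers of most other cell types were read at low summed levels in members. Summed glia markers stood at 198, 209 and 191 CPM, with 4, 8 and 8 of 10 markers read and Foxd3 at 0 in all 3 libraries, and at least 3 of the markers had a UMI in 4, 43 and 81 members. Sox10, which is on that list, is expressed in otic epithelium as well as in glia. Macrophage markers summed to 3.81, 1.86 and 44.3 CPM, the last from 1 Dox replicate 2 cell, neutrophil markers to 0, 2.39 and 2.69, and endothelial markers to 22.9, 40.0 and 49.1. The pericyte list, which includes Notch3, summed to 3.81, 53.3 and 52.0. Melanocyte and stria markers summed to 57.2, 139 and 171 CPM, with Tyr, Dct, Pmel and Mlana at 0 in all members, and middle ear markers to 3.81, 12.5 and 16.9. The part of free RNA and of doublets in these values was not tested.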

How the data were processed

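The authors deposited 1 filtered matrix of raw UMI counts per library (31053 genes). The submitters' processing notes list Seurat 3.2.2, STAR and Cell Ranger 5.0, with the build mm10 (GRCm38). Per the file headers, the software version was 3.1.0, and this difference could not be settled. The sources do not tell whether intronic reads entered the counts, and 0 columns of samples were left unused.

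Members were chosen by the rule stated above, in Python 3.11.15 (numpy 2.4.6, scipy 1.17.1, pandas 2.3.3). The members, the gene lists and the alternatives were chosen with earlier results of these data known. Counts were summed per library over members and scaled to CPM by the total. A quasi-likelihood test was planned only for libraries with at least 20 members each. The control had 7, so no p-value was computed for Dox against control or for its difference between cell sets. The named genes were then the 12 largest in each direction by the smaller of the 2 Dox ratios, at least 50 UMIs, leaving out clone names, pseudogenes, mitochondrially encoded genes and the 20 genes of the rule. The rule also took Notch1, Myc, Malat1 and Epcam, up to 4 genes per list, and the 20 highest and 10 lowest genes against other epithelial cells. Other list genes in the text were chosen after their values were seen. Intervals are 95% exact Poisson, Clopper-Pearson or conditional binomial. TMM factors came from edgeR 4.0.16 and size factors from DESeq2 1.42.0 (R 4.3.3). No doublet caller was run. The steps were tested on simulated counts. Replicates are libraries of pooled cultures.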

Additional observations from a re-analysis of the deposited data

How the results depend on the processing

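Of 117 named genes at least 2-fold apart, 107 kept their direction in all 23 alternatives that gave a value, and 80 stayed 2-fold. The count of higher and lower genes was 935 and 675. It was 351 and 342 with a pseudocount of 30 CPM, 1205 and 434 with TMM, 275 and 102 of 1016 genes with cells thinned, 1718 and 1069 of 9283 without members that shared a barcode (4 control cells left), and 77 and 18 of 303 without cells holding other cell type markers (2, 5 and 7 cells left, so fewer genes were measured). The marker alternative left out members with UMIs of at least 2 markers of 1 list, for macrophages, glia, fibroblasts, pericytes or endothelium. Those lists include Lum, Dcn, Sox10 and Notch3, so a cell it left out need not be of another type. Leaving out 1 control cell gave 932 to 1140 and 651 to 843, and leaving out a Dox replicate 1084 to 1109 and 834 to 839. The member share in Dox replicate 2 was 14.3% with at least 3 E genes and 15.4% with a lead of 0.25. Without other cell type markers the Dox shares were 9.62% and 6.80%, and without shared barcodes the control share was 16.7%.

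Differences of at least 2-fold that turned, as mean log2 ratios, were Trp53inp1 at 0.97 (lead of 0.25), Lcn2 at 9.0 (other cell type markers left out) and the sterol list at -0.15 (thinned). Without members that shared a barcode they were Orm1 1.27, Lcn2 0.88, Nr4a1 0.49, Amotl2 0.12, Vim 1.12, Cyr61 0.33, Orm2 0.98 and the antimicrobial list 0.29. Wfdc12 also turned in those cells, as given above, but had too few UMIs left there to be counted. Medians of lists under 2-fold also changed sign, among them Notch receptors and ligands (1.83 without Dox replicate 2, where fewer genes were measured) and wound and YAP genes (0.71 without shared barcodes). Leaving out 1 library or control cell at a time gave -1.78 to 0.033 for Car9, -3.44 to 0.80 for Orm2, -1.75 to 1.11 for Trp53inp1 and -1.67 to 0.55 for Aqp5. List medians over the alternatives ran from 1.72 to 4.23 for G2/M, 1.16 to 2.36 for S phase, 1.02 to 2.03 for MYC growth, 1.00 to 1.6 for ribosomal proteins, -1.42 to -1.07 for BMP and Id, and -2.0 to -0.75 for sulcus genes. The causes were not tested. The quasi-likelihood test and its DESeq2, legacy and combined alternatives were not run, since the control had 7 members. No paired analysis was possible because the control has 1 library, whose label carries no replicate number. Depth limits the control side: 1 UMI is 3.81 CPM.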

Other observations

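Other gene groups of the member cells differed little or in part between Dox and control (levels in CPM, control, Dox replicates 1 and 2). Of 13 circadian output genes, 5 were at least 2-fold lower in both Dox libraries and none higher, beside 6.86% and 9.5% of all genes. Bhlhe40, a clock-linked repressor, stood at 183, 27.8 and 24.6, Cry2 at 68.6, 14.6 and 14, and Dbp at 130, 27.6 and 28.0. The 5 genes also included Per1 and Bhlhe41. Of 24 genes of glycolysis and hypoxia, 5 were lower and none higher, beside the same shares. Among the 5 was Car9, whose mean log2 ratio ran from -1.78 to 0.033 with 1 control cell left out at a time. The median log2 ratio of the 24 genes ran from -0.73 to 0.04 over the alternatives.

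Of 15 p53 target genes, 3 were higher and 2 lower, where 9.5% of all genes were higher and 6.86% lower. The death effector Bax stood at 57.2, 214 and 211, and Phlda3 at 15.2, 41.4 and 48.5, whereas Mdm2, the p53 antagonist, stood at 64.8, 55.1 and 69.4. Of 17 NRF2-responsive and glutathione genes, 3 were higher and 2 lower, near those shares of all genes, with the glutathione transferase Gstm1 at 107, 390 and 396 and Mgst1 at 111, 459 and 433. Of 9 otic progenitor factors, 1 was higher, Sox11 at 22.9, 63.9 and 87.5, and 2 were lower, Gata3 and Sox9. Eya1 stood at 99.1, 65.7 and 57.4. Of 3 measured fetal RNA-binding and chromatin genes, none passed 2-fold in both Dox libraries. Beside the same shares, of 19 junction genes 1 was higher (Marveld2) and 3 lower (Cldn9, Epcam and F11r), and of 11 small leucine-rich proteoglycan and basement membrane genes 2 were higher (Col4a1 and Hspg2) and 4 lower (Col4a5, Dcn, Lum and Nid2).

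Some barcodes outside the kept epithelial cells, left out by the cell filters or for lack of an Epcam UMI, met the score rule. They numbered 7 of 422, 21 of 573 and 8 of 551 such barcodes (1.66%, 3.66% and 1.45%). Of them, 4, 4 and 2 had no Epcam UMI, and 3, 16 and 8 had a mitochondrial share under 1%. Malat1 made up under 0.1% of the UMIs in 3, 19 and 6. A barcode can be in more than 1 of these groups.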
